A study of Mus musculus with 4 samples.

Results

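Interval elements are the 16181 array elements that the array design names by a stretch of the mouse genome and a strand letter, F or R, and not by a transcript accession. They made up 29.1% of the 55681 elements that are no controls, and they covered 4607 stranded regions in 3540 intervals on the mm9 genome build. All elements with such a name were taken, whatever their signal. The RNA came from primary mouse mesenchymal stromal cells (MSCs) at passage 5, transduced with retroviral short hairpin RNAs. The control cells carried the hairpin named shControl, and the others carried 1 of 3 hairpins, each against its own target sequence in Islr, which encodes the surface and secreted protein Meflin, labelled shlSLR no.1 to no.3 and called hairpins 1 to 3 here. All 4 cultures thus held a hairpin vector, each was measured on 1 one-colour Agilent array, and the labels do not say whether they came from 1 MSC preparation. The arrays therefore have 1 control and 3 knockdowns, and the 3 hairpins are the only replicates of the knockdown.

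Long noncoding RNAs are transcripts without a long reading frame. Some act in the nucleus, where they hold protein complexes near a gene or silence neighbouring genes on the same chromosome, and others are by-products of transcription at enhancers or promoters. Many are present at few copies per cell and are restricted to few cell types. Stranded intervals of this kind were placed on arrays to measure transcription outside annotated genes, and several elements per interval allow the readings to be compared with each other. Whether each interval lies outside genes, and which genes lie beside it, was not analysed here, because the gene table used here is on another build.

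The knockdown was first checked on the target. The Islr element had a signal of 454 with shControl, 70.5 on hairpin 2, and 11 and 3.44 on hairpins 1 and 3, where it was not well above background. Islr was thus at least 20.5-fold lower on hairpin 1, and on hairpin 3 the bound was at least 29.6-fold. Its adjusted p in limma, the test used below, was 0.835. An element that did not pass that test is therefore not shown to be unchanged. All 15 stromal marker genes were above background on all 4 arrays, among them Pdgfra, Ly6a and Col1a1. Of the leukocyte genes, Itgam, Cd68, Csf1r and Cd3e were detected on every array, and Ptprc and Adgre1 on none. The summed signal of the leukocyte list was 11228 with shControl and 10578, 9331 and 6811 on hairpins 1 to 3, while for 4 endothelial genes it ranged from 3318 to 3601. Kdr alone made up most of the endothelial sum, with 3251 to 3532, and Cdh5 and Tek were above background on no array. Of 4 epithelial genes, 2 were detected on every array, among them Krt18 with 58.0 to 139, and Epcam and Krt8 were detected on none. Itgam made up most of the leukocyte sum, with 8880 with shControl and 8743, 7547 and 4960 on the hairpins, and Cd68 had another order, with 475 and then 257, 256 and 387. The part of these other cell types in the results below was not tested.

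On each array, under 36% of the interval elements were detected. On the control array 31.9% were well above background, a flag the scanner software sets for each spot, and on hairpins 1, 2 and 3 the shares were 30.2%, 32.4% and 35.6%. Elements with an NM accession, which target messenger RNAs, reached 64.9%, 63.6%, 65.3% and 67.6%, and the remaining 12805 elements reached 42.0%, 40.7%, 42.2% and 44.9%. The order of the 4 arrays was the same in all 3 kinds of element, with hairpin 1 lowest and hairpin 3 highest. The lowest signal that was called was 19.3 with shControl, 20.8 and 19.1 on hairpins 1 and 2 and 15 on hairpin 3, and the SD of the negative controls was 2.87, 3.15, 2.97 and 2.65. The part of this lower limit on hairpin 3 in its higher share was not tested.

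**Figure D1:**
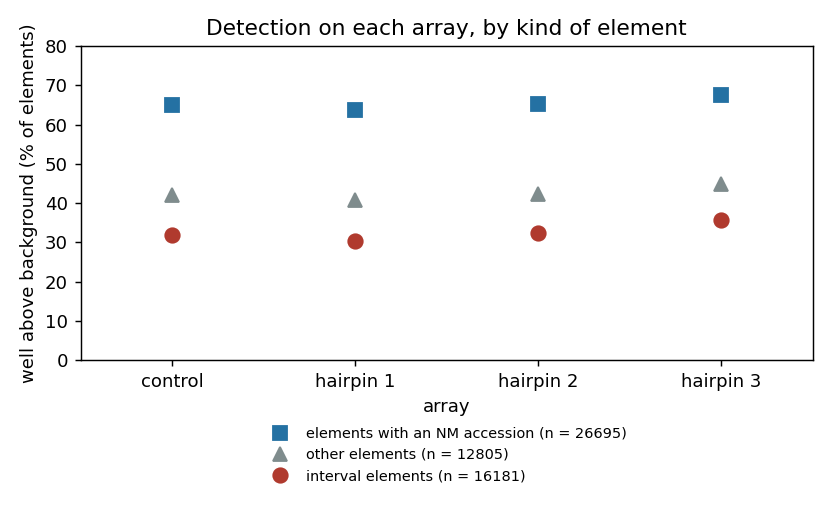
Share of elements well above background (y axis, percent) on each of the 4 arrays (x axis), for interval elements (circles), elements with an NM accession (squares) and the remaining elements (triangles). Interval elements lie between 30.2% and 35.6%, below both other kinds on all 4 arrays.

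Over the 4 arrays, 4247 interval elements (26.2%) were above background on all 4, 9417 (58.2%) on none and 2517 (15.6%) on 1 to 3. The corresponding share on all 4 arrays was 61.4% of elements with an NM accession. Of elements seen on a single array, 663 were seen on hairpin 3, against 276 with shControl alone, 215 on hairpin 1 alone and 293 on hairpin 2 alone. Another 111 elements were above background on the 3 hairpin arrays and not with shControl. Over all 55681 elements, 12.0% were above background on 1 to 3 arrays. Shares over all elements for the single patterns are not given, so these counts say nothing particular to interval elements.

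Detection differed little by strand and more by place. On all 4 arrays, 25.4% of the 8171 F elements and 27.1% of the 8010 R elements were above background. By chromosome the share ran from 17.9% on chromosome 9 (132 of 736) and 20.9% on chromosome 13 to 32.9% on chromosome 19 and 34.4% on chromosome 17 (309 of 899). By interval length it was 21.1% for 2480 elements in intervals of 62 to 998 bases and 28.8% for 1462 in intervals of 1002 to 4971 bases. It was 27.7% and 26.7% in the next 2 bands (5016 to 19951 and 20002 to 99283 bases) and 22.7% for 740 elements in intervals of 100527 to 7128487 bases. These shares describe the array and carry no test, because elements of one region may read one transcript.

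Elements of one region were often not detected together. A region held 1 to 10 elements (median 3), and 2214 regions (48.1%) had at least 1 element above background on all 4 arrays. Of the 3917 regions with 2 or more elements, 381 had every element above background on all 4 arrays, 1619 had some and 1917 had none. Of 1067 intervals with elements on both strands, 369 had such an element on both, 219 on F alone, 237 on R alone and 242 on neither. In 1351 regions no element was above background on any array.

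Interval elements were dim where they were seen. Among elements above background on all 4 arrays, the median signal, as the geometric mean over the arrays, was 94.5 for interval elements, 820 for elements with an NM accession and 729 for all 21163 elements that are not interval elements. Of the 4247 interval elements, 479 (11.3%) reached a signal of 1000, against 45.1% of the other elements. The highest signal was 161299. Signals also depend on how well an element binds its target, so these are levels of signal and not of transcripts.

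**Figure D2:**
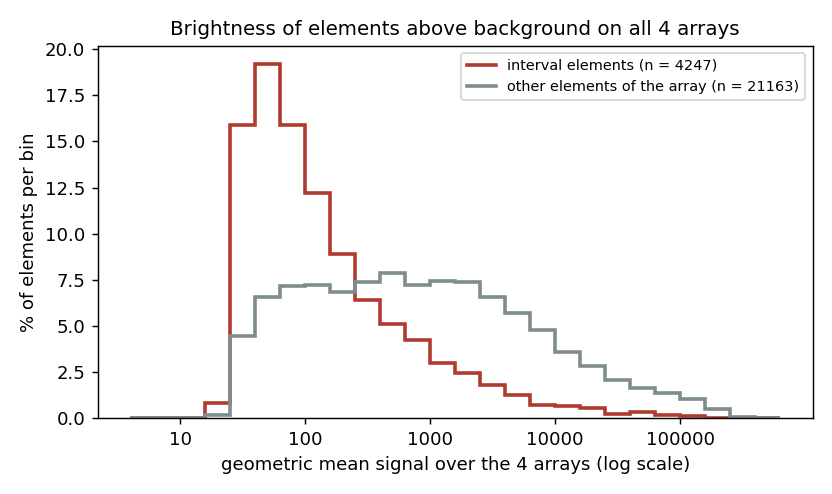
Share of elements (y axis, percent per bin) by geometric mean signal over the 4 arrays (x axis, log scale), for interval elements and for the other elements above background on all 4 arrays. The interval elements pile up at the dim end (median 94.5), and the other elements spread broadly around a median of 729.

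The 8 interval elements of highest mean signal came from 7 regions, and 3 of those regions lie on chromosome 17. The highest, A_30_P01031754 in chr19:5801802-5802597 (R), had a signal of 203358 with shControl and 135857, 156698 and 156356 on hairpins 1 to 3. Its log2 difference from the control, hairpin minus control after scaling, was -0.40 ± 0.08 (mean ± SD, n = 3), with all 3 hairpins lower, and its adjusted p in limma was 0.951. In the other direction, A_30_P01021243 in chr17:48068261-48087905 (F) had 106679 with shControl and 121414, 136010 and 133048 on hairpins 1 to 3, a difference of 0.33 ± 0.05 (adjusted p = 0.952). Both differences were larger than the spread between hairpins, and neither passed the test, which has only 2 residual degrees of freedom. The other 6 had means between -0.02 and 0.14. They were A_30_P01026458 in chr11:22681800-22707775 (R), A_30_P01022075 and A_30_P01025369 in chr17:17481706-17482457 (R), A_30_P01020015 in chr17:39982023-39983277 (F), A_30_P01031448 in chr14:78924115-78938125 (F) and A_30_P01021065 in chrX:138967807-138968413 (R). Their signals stayed between 84582 and 160022 on all 4 arrays.

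The comparison the study was built for sets each hairpin against the control array. Among the 4247 interval elements above background on all 4 arrays, 39 were at least 2-fold higher and 53 at least 2-fold lower on hairpin 1. Over all 25410 elements above background on all 4 arrays, the shares were 0.992% higher and 1.26% lower. On hairpin 2 the counts were 60 higher and 62 lower, beside 1.35% and 1.9% of all elements, and on hairpin 3 they were 67 higher and 224 lower, beside 2.32% and 3.59%. The 224 are 5.27% of the interval elements, above the share over all elements. Set against the other elements at matched signal, the share was clearly higher in 1 of 4 bands and nearly equal in the lowest band. Under a signal of 50, 5.52% of interval elements and 5.45% of the other elements were at least 2-fold lower on hairpin 3, and from 50 to 200 the shares were 7.55% and 5.53%. From 200 to 1000 they were 2.80% and 3.33%, and at 1000 and above 0.626% and 1.73%. On the other 2 hairpins the counts were near or under the share over all elements. At least 2-fold on all 3 hairpins, 19 interval elements were lower (0.447%, beside 0.319% of all elements) and none was higher (beside 0.0669%). Each hairpin has a single array and all 3 are set against the same control array, so these counts carry no test.

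The whole distribution of interval elements lay slightly below the control. The median log2 difference of the 4247 elements was -0.02, -0.05 and -0.11 on hairpins 1 to 3, while that of the 21163 other elements was -0.00, 0.02 and 0.03. Over all interval elements, detected or not, it was 0.19, 0.0076 and -0.31, so the direction on hairpins 1 and 2 held only for detected elements. Below the control on all 3 hairpins were 1371 interval elements (32.3%), against 23.5% of the other elements, and 843 (19.8%) were above it on all 3, against 27.2%. The SD over interval elements was 0.36, 0.41 and 0.52 on hairpins 1 to 3, larger than the shift of the median each time.

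The shift on hairpin 3 was larger in the dimmer elements. For interval elements with a mean signal under 50 (1123 elements) and from 50 to 200 (1787), the median difference on hairpin 3 was -0.15 in both bands, and for other elements of the same bands it was -0.07 and -0.06. From 200 to 1000 it was -0.07 for 858 interval elements and 0.02 for the others. At 1000 and above it was -0.01 for 479 interval elements and 0.08 for the others. Interval elements therefore lay below the other elements in each band on this hairpin, and the median of the other elements also moved with signal. The part of signal level in the shift was not tested further.

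**Figure D3:**
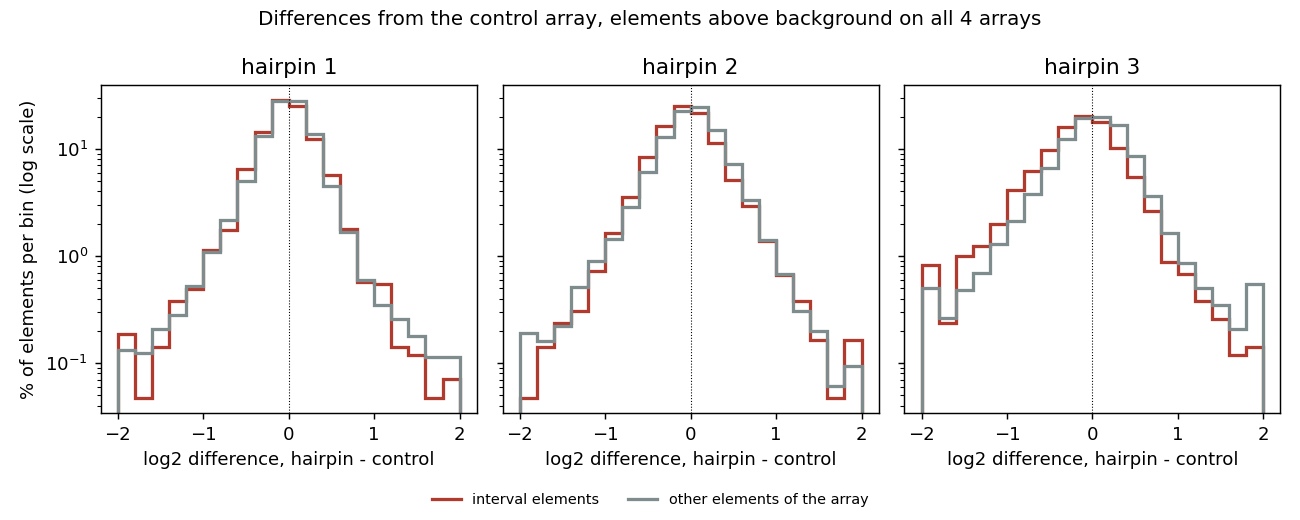
Distribution of log2 differences, hairpin minus control (x axis), for interval elements and for the other elements of the array, both above background on all 4 arrays, with 1 panel per hairpin. The y axis is the percent of elements per bin on a log scale, and differences beyond 2 in either direction are counted in the outermost bin. On hairpin 3 the median of the interval elements lies to the left of that of the other elements, and 5.27% of the interval elements are at least 2-fold lower.

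A second set kept elements above background with shControl or on all 3 hairpins, and it is the set that was tested. It held 5274 interval elements: the 4247 above, 640 seen on the control and on 1 or 2 hairpins, 276 seen on the control alone and 111 seen on the hairpins and not the control. It left out 1490 elements seen on 1 or 2 hairpins and not on the control, so the set itself favours lower values on the hairpins. In it, 88 interval elements (1.67%) were at least 2-fold higher and 366 (6.94%) lower on hairpin 1, where the shares over all 28146 elements tested were 1.37% and 4.38%. On hairpin 2, 113 (2.14%) were higher and 366 (6.94%) lower, beside 1.8% and 4.71% of all elements. On hairpin 3, 112 (2.12%) were higher and 598 (11.3%) lower, beside 2.66% and 6.82%. On all 3 hairpins, 19 (0.360%) were higher and 222 (4.21%) lower, beside 0.242% and 2.21%. With every element above background on at least 1 array, the counts for all 3 hairpins were 96 higher and 222 lower, so the balance moved with the rule of inclusion. Shares over all elements under that rule are not given, so these counts show only that move.

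In limma's moderated test of the 3 hairpins against the control, 51 of the 5274 interval elements were lower at a Benjamini-Hochberg adjusted p under 0.05 and none was higher. The 51 are 0.967% of the interval elements tested, beside 157 lower calls (0.558%) and 0 higher calls (0%) over all 28146 elements. At an unadjusted p under 0.05 in the same test, 394 interval elements were lower and 90 higher. The share over all elements at that threshold is not given, so these 2 counts say nothing particular to interval elements. Of the 4247 interval elements above background on all 4 arrays, 160 had an unadjusted p under 0.05. All 51 were above background with shControl and on no hairpin array, so each entered the test only through the single array on which it was high, while 1490 elements seen on 1 or 2 hairpins alone were left out. The count, its direction and these p-values are therefore a description of what the inclusion rule let in and no support for a decrease. Their control signals were 28.2 to 198 (median 64.5), and each was at least 1.51-fold to at least 9.34-fold higher on the control than the lowest signal called on the hairpins (median of these bounds 3.44). That lowest signal is not the limit of each element, so a bound may be too high. No interval element was called when the background was corrected with normexp, when eBayes used an intensity trend, under the 4 other filters on low signals, or without hairpin 1 or hairpin 2, and 83 were called without hairpin 3.

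The elements with the highest bounds are given as a description. A_30_P01019911 in chr8:44232164-44267061 (F) had a signal of 175 with shControl and 4.78, 4.37 and 6.14 on hairpins 1 to 3. Its control signal was at least 9.34-fold the lowest signal called on the hairpins. A_30_P01017955 in chr7:129294166-129301366 (F) had 164 with shControl and 4.77, 4.37 and 3.42 on the hairpins, with a bound of at least 8.78-fold. In both, the control value stood alone and the 3 hairpin values were low (the medians of spots not above background were 5.19, 4.78 and 3.76). A_30_P01019774 in chr4:45079022-45096897 (R) had 198 with shControl and 23.1, 23.8 and 18.8 on the hairpins, none of them called, with a bound of at least 8.79-fold. A_30_P01031615 in chr6:117829576-117834247 (F) and A_30_P01023738 in chr11:97457180-97487074 (F) had 162 and 149 with shControl and were on no hairpin either, but their hairpin values were uneven (10.5, 20.4 and 13.4, and 5.51, 5.05 and 14.3) and they did not pass the test.

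**Figure D4:**
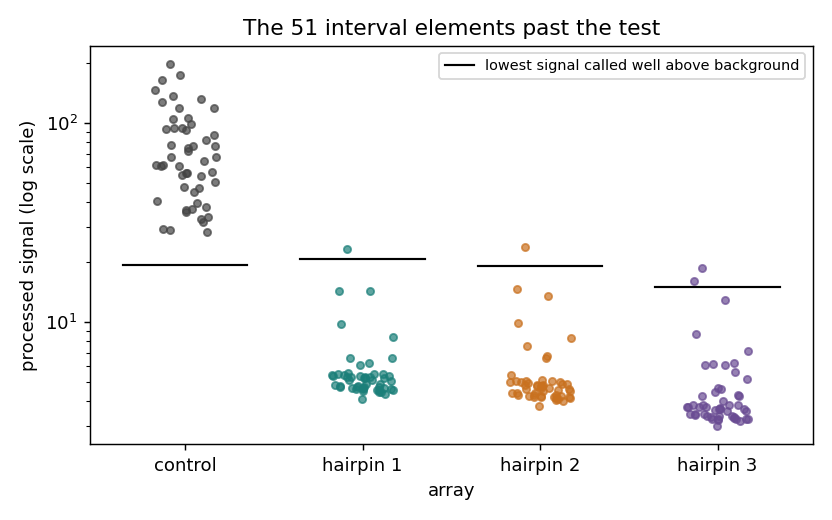
Processed signal (y axis, log scale) of the 51 interval elements past the test on each of the 4 arrays (x axis), 1 point per element and array. The horizontal lines are the lowest signal that was called well above background on that array. The control values span 28.2 to 198 and lie above the line. None of the hairpin values was called, including the few that lie above the line, since the call is made for each spot.

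Most other elements of these regions were below background. The 51 elements lay in 51 different regions, 2 of which had no other element. The other 49 regions held 190 further elements, of which 133 were above background on no array and 33, in 14 regions, on all 4 arrays. Of those 33, 10 were below the control on all 3 hairpins and 1 was at least 2-fold lower on all 3, and their median differences were 0.00, -0.03 and -0.45 on hairpins 1 to 3. The 1 element was A_30_P01031049 in chr6:86477309-86537554 (R), with 95.9 with shControl and 24.5, 28.4 and 39.9 on hairpins 1 to 3. Its neighbour in the region that was called, A_30_P01024250, had 132 and then 4.43, 4.05 and 6.21, and another, A_30_P01018734, had 77.7, 91.2, 88.7 and 49.0.

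Elements seen on the 3 hairpins and not with shControl numbered 111. The 5 named were those with the highest value on any 1 hairpin, a rule that favours uneven elements, so they do not describe the 111. A_30_P01018372 in chr18:35204950-35216650 (R) had 12.5 with shControl and 35.3, 33.9 and 133 on hairpins 1 to 3, at least 2.91-fold higher on the hairpins. A_30_P01030130 in chr15:79764481-79809909 (R) had 18.4 with shControl and 42.6, 114 and 36.2 on the hairpins, at least 3-fold higher. A_30_P01025632 in chr17:6426800-6528950 (R) had 14.5, then 113, 24.4 and 26.4, at least 2.24-fold higher. In each, 1 hairpin was far above the other 2, a different one each time. The remaining 2 of the 5 named, A_30_P01028465 in chr1:135956616-135957485 (R) and A_30_P01026221 in chr1:88396166-88396660 (R), had bounds of 2.49-fold and 2.18-fold, and the adjusted p of the 5 were 0.911 to 0.952.

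Among elements measured on all 4 arrays, the smallest adjusted p was that of A_30_P01022166 in chr15:32167516-32174417 (F). Its signal was 159 with shControl and 36, 44.9 and 42.5 on hairpins 1 to 3. The difference was -1.91 ± 0.13 (3.75-fold lower, SD over n = 3), and its adjusted p in limma was 0.0635. The 3 hairpins lay close together and far from the control. The 4 other elements of this region had signals of 3.03 to 23.2, and none was above background with shControl. A_30_P01020768 in chr14:99729955-99730583 (F) had 120 with shControl and 29.6, 38.9 and 31.1 on the hairpins (-1.81 ± 0.19, adjusted p = 0.104). Another element of that region, A_30_P01032838, was lower too but by less, with 48.1 and then 34.6, 35.7 and 29.4.

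In 2 of the regions named here, 1 element was far below the control and a neighbour was not. A_30_P01026553 in chr7:144563845-144603732 (R) had 140 with shControl and 47.1, 32.6 and 24.6 on the hairpins (-2.01 ± 0.50, adjusted p = 0.407). All 4 other elements of that region were detected on the 4 arrays. One of them, A_30_P01017548, was higher on each hairpin, with 543 with shControl and 626, 681 and 785. A_30_P01032782 in chrX:90997595-91009570 (F) had 94.9 and then 35, 32.9 and 29.0 (-1.51 ± 0.17), whereas A_30_P01020940 of the same region had 106, 104, 106 and 116. The other elements named for a large shared decrease were A_30_P01033653 in chr4:3009566-3009932 (R) with -1.83 ± 0.43, whose 1 neighbour was below background, A_30_P01031049 in chr6:86477309-86537554 (R) with -1.61 ± 0.34, A_30_P01018127 in chr3:85842798-85887216 (F), the lone element of its region, with -1.31 ± 0.08, and A_30_P01027749 on chromosome 18, whose neighbours were lower too and which is described with its locus below. Over all 19 elements that were 2-fold lower on all 3 hairpins, 17 regions were involved, and 2 regions held 2 each. Those regions had 19 further elements above background on all 4 arrays. Elements 2-fold lower on all 3 hairpins were already counted among the 19, so the further ones are those that were not. Of them, 10 were below the control on all 3, and their medians were -0.25, -0.29 and -0.62.

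Among the 4247 elements above background on all 4 arrays, none was 2-fold higher on all 3 hairpins. Those with the largest shared increases are given here. A_30_P01029397 in chr11:6421951-6429173 (F) had 37.2 with shControl and 199, 73.1 and 74.5 on hairpins 1 to 3, so that hairpin 1 was 5.7-fold higher and the others about 2-fold (1.51 ± 0.87, adjusted p = 0.937). Of its neighbours in the region, A_30_P01022952 had 31.6 and then 35.7, 61.0 and 51.7. The increase was thus uneven between hairpins and partly seen in another element. In chr1:122655019-122660142 (F) all 3 elements were higher on each hairpin. A_30_P01027093 had 32.5 and then 55.0, 85.2 and 87.9 (1.24 ± 0.34, adjusted p = 0.569), A_30_P01031656 had 41.4, 50.9, 82.0 and 86.4, and A_30_P01032566 had 35.4, 41.8, 86.1 and 92.0. Hairpins 2 and 3 were alike there and hairpin 1 lay between them and the control. A_30_P01018545 in chr17:46972160-46997919 (F) had 20.3 and then 38.7, 36.2 and 40.5 (0.97 ± 0.10, adjusted p = 0.375), but another element of that region, A_30_P01024700, had 13715, 12453, 13072 and 13520. The other 5 of the 8 named had mean differences of 0.75 to 1.17. They were A_30_P01024483 in chr17:13020750-13033750 (F), A_30_P01022104 in chr1:193815525-193825775 (R), A_30_P01022603 in chr17:56687541-56694616 (F), A_30_P01020827 in chr6:131263850-131314850 (R) and A_30_P01028301 in chr16:64758224-64765674 (R). In the first of these regions a neighbour, A_30_P01030754, went the other way, with 146 with shControl and 33.4, 24.2 and 32.7 on the hairpins. It was not above background on hairpin 2. In the second, the neighbour A_30_P01025812 was higher on each hairpin, with 59.3 and then 72.6, 118 and 90.5.

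Some elements stood apart on a single hairpin. On hairpin 2, A_30_P01031231 in chr16:11008534-11013759 (F) had 276, against 28.2 with shControl and 29.6 and 26.5 on hairpins 1 and 3, a 9.94-fold difference from the control. A_30_P01024888 in chr16:32309935-32328234 (F) and A_30_P01020855 in chr18:36449530-36456800 (R) were 5.33-fold and 4.27-fold higher on the same hairpin and within 1.5-fold of the control on the others. On hairpin 1, A_30_P01024994 in chr8:108153471-108159346 (F) had 103, against 27.6 with shControl and 35.3 and 27.0 on hairpins 2 and 3. In these elements 1 array stood apart and the control lay with the other 2.

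On hairpin 3 elements stood apart in both directions. A_30_P01028766 in chr9:78107225-78118850 (F) had 236, against 48.6 with shControl and 44.8 and 62.9 on hairpins 1 and 2 (4.95-fold higher than the control). A_30_P01020518 of the overlapping region chr9:78104935-78116974 (F) had 161, against 51.7, 47.2 and 38.1 (3.18-fold), so both elements of the overlapping intervals were high on hairpin 3. In the other direction, A_30_P01023098 in chr17:12990484-13018375 (F) had 49.7, against 451 with shControl and 193 and 194 on hairpins 1 and 2. Its log2 differences were -1.14, -1.19 and -3.15, so hairpins 1 and 2 were also below the control. A_30_P01018338 in chr14:106562325-106660675 (F) had 192 with shControl and 115, 86.5 and 22.6 on the hairpins, with hairpin 3 again lowest. No second array exists for any hairpin, so these differences have no replicate check.

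**Figure D5:**
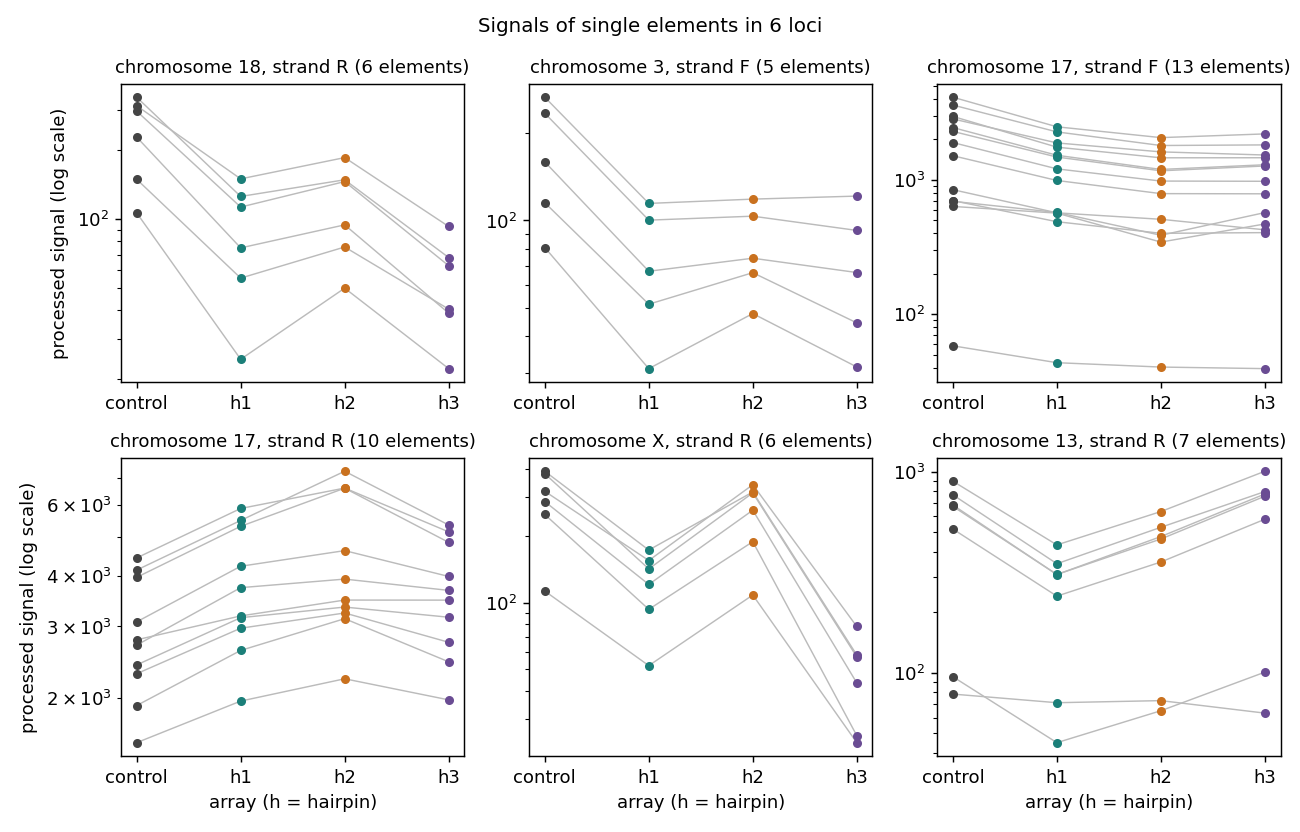
Processed signal (y axis, log scale) of each element above background on all 4 arrays in 6 loci, by array (x axis, h for hairpin), with grey lines joining the values of 1 element. Most elements of a locus run nearly parallel, with 1 exception at chromosome 13: down on all 3 hairpins in the top row, up on all 3 at chromosome 17 strand R, and down mainly on hairpin 3 at chromosome X and on hairpin 1 at chromosome 13.

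Regions with several measured elements give a reading that does not rest on 1 spot. There were 552 regions with at least 3 elements above background on all 4 arrays, holding 2102 elements. The SD of the log2 difference within a region was 0.24, 0.28 and 0.29 on hairpins 1 to 3, against 0.36, 0.43 and 0.55 over all 2102 elements. All elements of a region lay on the same side of the control in 50.4%, 54.2% and 59.2% of regions. The region median was below the control on all 3 hairpins in 180 regions and above it in 104, and it was at least 1.5-fold lower on all 3 in 9 regions and higher in none. All 3 differences share the same control array. No matching share over other elements is given, so these counts say nothing particular to interval regions. Elements of 1 region are not replicates, since they share the array and, where they read 1 transcript, the RNA.

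At the level of loci, in which overlapping regions of 1 strand were joined, 206 of 3329 had at least 5 elements above background on all 4 arrays. One that was lower on all 3 hairpins was chr18:5119300-5181600 (R), made of 2 region names. Of its 8 elements, 6 were above background on all 4 arrays, with medians of -1.34, -1.03 and -2.22 on hairpins 1 to 3. A_30_P01026865 had 340 with shControl and 125, 148 and 67.9 on the hairpins. A_30_P01020209 had 312 and then 150, 185 and 92.8, and A_30_P01027749 had 228 and then 74.9, 94.3 and 38.9. All 6 were lower on each hairpin, with hairpin 3 lowest each time. The 5 elements on the opposite strand of the same interval were above background on no array.

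Other loci were lower on the 3 hairpins to a more equal degree. In chr3:145269449-145298239 (F) 5 of 6 elements were above background on all 4 arrays, with medians of -1.13, -1.08 and -1.31. A_30_P01018567 had 233 with shControl and 100.3, 103 and 92.5 on the hairpins, and A_30_P01029390 had 265 and then 114, 118 and 121. The differences of the 5 elements ranged from -0.73 to -1.34 over all 3 hairpins. In chr10:69669025-69686275 (F) the medians of 7 elements were -0.95, -1.14 and -0.91, and in chr13:62364360-62381775 (F) those of 6 elements were -0.79, -1.14 and -1.09. In chr4:126009815-126015875 (F) they were -0.70, -0.73 and -0.59 (6 elements). The region chr10:94870971-94871658 (R), with 3 elements, had -0.94, -1.12 and -1.82, and chr19:60220577-60238494 (F), with 3, had -1.90, -0.79 and -1.55. In none of these loci did the hairpin values of an element above background on all 4 arrays reach its control value.

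A brighter locus was lower as a whole. In chr17:26911032-26917047 (F) all 13 elements were above background on all 4 arrays and all 13 were lower on each hairpin, with medians of -0.52, -0.91 and -0.88. A_30_P01027115 had 4108 with shControl and 2476, 2057 and 2192 on the hairpins, and A_30_P01022537 had 3592 and then 2269, 1797 and 1816. In the 10 elements of chr17:26911397-26917047 (F) the differences ran from -0.67 to -0.43 on hairpin 1, from -1.01 to -0.71 on hairpin 2 and from -0.99 to -0.76 on hairpin 3, so that the spread within the region was smaller than the difference from the control. On the opposite strand 5 of 10 elements were above background on all 4 arrays, with control signals of 35.7 to 74.1 and medians of -0.38, -0.40 and -0.69.

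Loci higher on all 3 hairpins included those of chr17:39960567-39992817, on both strands. On strand R all 10 elements were higher on each hairpin, with medians of 0.50, 0.58 and 0.39. A_30_P01018010 had 4434 with shControl and 5877, 6602 and 5143 on the hairpins, and A_30_P01019912 had 4137 and then 5490, 7267 and 5349. On strand F the medians of 10 elements were 0.39, 0.55 and 0.24, at higher signals, for example 40750 and then 45509, 62753 and 44792 for A_30_P01023888. One of the 10, A_30_P01020015, with 111310 with shControl and 118513, 115517 and 108646, differed from the control by no more than 0.18. The differences on strand R stayed under 2-fold, and all rest on the same single control array.

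Other loci were higher on the hairpins to differing degrees. In chr9:14460976-14488051 (F), 5 of 6 elements above background on all 4 arrays were higher on each hairpin, as in A_30_P01020075 with 5660 and then 6615, 9425 and 8551. The sixth, A_30_P01032901, was lower on each, with 1620, 1387, 1181 and 1206. It belongs to another region name inside the locus, chr9:14480441-14483362 (F). In chr4:146507925-146532650 (R) the 5 elements were higher on each hairpin, between 0.22 and 0.53. In chr10:83980790-83986015 (R) the medians were 0.27, 1.23 and 0.55, so hairpin 2 was the high array, as in A_30_P01027975 with 168, 190, 377 and 240.

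Some loci separated the hairpins from each other. In chrX:50400250-50410825 (R), 6 of 9 elements were above background on all 4 arrays, and their medians were -1.12, -0.18 and -2.70. A_30_P01024529 had 380 with shControl and 142, 312 and 57.0 on hairpins 1 to 3, and A_30_P01032120 had 390 and then 172, 315 and 58.1. Hairpin 2 lay near the control, hairpin 1 below it and hairpin 3 far below, and all 6 elements had that order. In chr13:94182877-94203935 (R), A_30_P01029168 had 898 and then 433, 635 and 1007, and A_30_P01028309 had 769 and then 349, 530 and 798, with hairpin 1 lowest and hairpin 3 above the control. In chr3:21964899-21974524 (R), hairpin 2 was higher than the control and hairpin 3 lower in all 6 elements, as in A_30_P01022266 with 127, 121, 230 and 73.0. In chr17:46972160-46997919 (R), hairpin 3 was lowest in A_30_P01018881, with 443, 416, 372 and 167. Of the 206 loci, 4, 4 and 10 had a median at least 2-fold lower on hairpins 1, 2 and 3, and 0, 1 and 0 a median at least 2-fold higher. No matching share over other elements is given for these counts either.

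The 6 intervals with the most elements above background on all 4 arrays, 13 to 16 each, show how the strands compare. In chr8:72663625-72673010 the F elements (8 of 8) had control signals of 53.6 to 3989 and medians of -0.21, -0.35 and 0.10, and the R elements (8 of 10) had 27.3 to 110 and medians of -0.05, -0.28 and 0.26. In chr16:43623581-43642715 the F elements (10 of 10, up to 9570) had medians of -0.28, -0.54 and -0.84 and the R elements (5 of 10, up to 159) -0.07, -0.37 and -0.76. In chr11:95627874-95640824 the medians were -0.11, -0.20 and -0.83 on F and -0.28, -0.18 and -0.74 on R. The order of the hairpins was the same on both strands in the first 2 of these intervals, and in the third hairpin 3 was lowest on both. In chr5:74487385-74497428 the medians of both strands were above the control on each hairpin (0.20, 0.53 and 0.26 on F, 0.36, 0.44 and 0.32 on R). In chr17:35080914-35090009 hairpin 2 was highest on both (0.39 on F and 0.61 on R), and in chr17:26911397-26917047, described above, the medians of both strands were below the control on all 3.

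Named long noncoding RNA genes, which the array measures through transcript accessions, are given beside the intervals. Of 72 genes in a list of well-known ones, 42 had an element and 30 were detected on every array. Of these 30, 10 were above and 9 below the control on all 3 hairpins, none was 2-fold from it on all 3 in either direction, and none passed the test. Their median differences were -0.00, 0.05 and 0.00. The genes named below were picked from the list after their values were seen. Airn and Kcnq1ot1 have 2 elements each, of which 1 is given. Airn, which silences imprinted genes on the paternal chromosome, had 890 with shControl and 466, 453 and 248 on hairpins 1 to 3 (adjusted p = 0.889). Neat1, the core RNA of nuclear paraspeckles, had 11451 and then 5826, 9667 and 4670, and Kcnq1ot1, another imprinted silencing RNA, had 425 and then 369, 335 and 180. Peg13, an imprinted RNA, had 2277 and then 1733, 1485 and 1207. All 4 were lower on each hairpin and lowest on hairpin 3, whereas Mirg was higher on each, with 79.6 and then 84.9, 110 and 98.7. Mir17hg, the host transcript of the miR-17 cluster, had 262 and then 338, 558 and 428, with each hairpin above the control. The 1 accession element of Malat1, an abundant nuclear speckle RNA, had 863 and then 632, 837 and 1867, so its hairpin values lay on both sides of the control. Whether interval elements read any of these genes was not analysed here, so the values stand for the accession elements alone.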

How the data were processed

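Total RNA of 4 cultures was column-purified with DNase and measured on 1 slide of one-colour Agilent arrays (design 028005, build mm9, Feature Extraction 11.5.1.1, per the file headers). The deposited values used are processed signal intensity per spot, background-subtracted per the file headers. Log2 intensity minus each array's 75th percentile (signals 442, 415, 435 and 433) was computed, and spots of 1 element were averaged. An element counted as detected where the scanner called at least 1 of its spots well above background, so an averaged signal can lie under the lowest signal called. The number of arrays limits the precision.

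The 3 hairpins were tested against the control with limma 3.58.1 in R 4.3.3 (lmFit, eBayes, Benjamini-Hochberg over 28146 elements), with 2 residual degrees of freedom, so the single control is assumed to vary like the hairpins. The p-values measure the spread between these samples. An element below background in a group has a bound, written as at least N-fold, against the lowest signal called on those arrays.

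Elements were named as the 8 of highest mean level, the 8 largest shared increases and decreases by their smallest difference, the 3 farthest from the nearest other array, the 5 brightest seen on the control alone or on the hairpins alone, any passing the test, and the 6 intervals with most elements on all 4 arrays. Regions needed 3 elements above background on all 4 arrays and loci 5 (intervals up to 100 kb joined); both rules, the neighbours in a region and the loci described were chosen after values were seen. The members and lists were chosen with earlier results of these data known. Alternatives covered scaling, background, filters, thresholds and left-out hairpins. Neighbouring genes and sequences were not analysed here. One marker gene is not reported here.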

Additional observations from a re-analysis of the deposited data

How the results depend on the processing

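Quantile normalization and median centring kept the direction of each median and each count within 1.5-fold. The authors' value table, a constant multiple of the processed signal per array, and removal of outlier spots, of which the interval elements had 0, could not move an interval element's difference, so they test nothing there (limma made 52 lower calls with the latter, through the other elements). The 51 lower calls of limma became 0 with normexp, with an intensity trend, without a filter, and with elements above background on all 4 arrays, on at least 1 array or at or above the median level, 79 at an adjusted p under 0.10, and 0 to 83 with 1 hairpin left out. The 0 higher calls became 1 at 0.10 and 0 to 7 with 1 hairpin left out (7 without hairpin 3). With normexp, no filter, all 4 arrays and at least 1 array in turn, elements at least 2-fold higher on all 3 hairpins numbered 0, 170, 0 and 96 (19 as reported), on hairpin 1 7, 1117, 39 and 503, on hairpin 2 11, 1065, 60 and 534, and on hairpin 3 18, 1176, 67 and 590. With normexp, no filter, all 4 arrays and the median level in turn, elements 2-fold lower on all 3 numbered 23, 346, 19 and 43, on hairpin 1 42, 718, 53 and 123, on hairpin 2 45, 804, 62 and 129, and on hairpin 3 94, 1198, 224 and 343. At 1.5-fold the higher counts were 68, 262, 369 and 329 and the lower 357, 634, 734 and 1209 (all 3, then hairpins 1 to 3). At 3-fold the higher counts were 3, 22, 28 and 23, and the lower ones 237 on hairpin 2 and 303 on hairpin 3. With 1 hairpin left out, 55 to 73 were higher on the remaining hairpins. The median differences of -0.05, -0.09 and -0.15 on hairpins 1 to 3 became 0.19, 0.0076 and -0.31 over all interval elements, which is also the value without a filter, and -0.0016, -0.020 and -0.079 with at least 1 array. On hairpin 3 the median was -0.24 with the percentile over detected elements, -0.056 with normexp and -0.10 at the median level. With the scanner's flag for signals positive and significant, detection was 58.3%, 58.3%, 60.1% and 66.0%. The mean log2 difference of Islr was -4.98, and -2.61 with normexp. Regions at least 1.5-fold lower on all 3 hairpins numbered 9, 5 with normexp and 9 to 24 with 1 hairpin left out, and regions higher 0, and 0 to 5 with 1 left out. Of 900 alternative values of named elements, 715 were counted as the same. For a called element this meant that it kept its call. For an uncalled one it meant no call and a move under its SD, whatever the direction. A call was lost in 165, and 16 of the 900 changed sign. Of 144 values for loci, 138 moved by less than their spread. These totals include the authors' value table and outlier removal, which could not move a difference. The causes were not tested. No paired analysis was possible because there is 1 control array. Signal over background limits the dim elements.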

Other observations

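The array design also names 13 elements by an interval without a strand letter, and these are not interval elements as defined above. All 5 elements of chr17:12941161-12944859 were above background on all 4 arrays and lower on each hairpin, with hairpin 3 lowest. A_30_P01018135 had a signal of 573 with shControl and 262, 307 and 84.3 on hairpins 1 to 3, with log2 differences of -1.04, -0.88 and -2.73. A_30_P01025039 had 263 and then 109, 107 and 30.2, and A_30_P01022766 had 179 and then 85.6, 99.95 and 66.6. None passed limma's test, with adjusted p of 0.952, 0.939 and 0.657 for these 3. Of the 5 elements of chr6:52032838-52033444, A_30_P01028792 alone was above background on an array, with 88.4 with shControl and 5.2, 9.03 and 13.4 on the hairpins. The 3 elements of chr3:34856791-34869544 were above background on no array.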
